A study of Mus musculus with 3 samples.

Results

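The growth factor genes described here are Pdgfa, Pdgfb, Pdgfc, Vegfa, Vegfb, Hgf, Igf1, Tgfb1, Spp1 and Grn. These 10 genes, of 24453 in the table, were chosen by name, and each is represented by its longest coding RefSeq transcript. They were followed in 3 RNA sequencing libraries of sorted mouse tissue macrophages, 1 each from heart, liver and kidney. All mice were C57BL/6, aged 8 weeks and in the steady state. Cells were sorted for CD11b and F4/80 and against Ly6G and Ly6C. The labels call the liver cells Kupffer cells, the macrophages that live in the sinusoids of that organ. The number of mice behind a library is not given in the sources used here.

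Macrophages release growth factors that act on the cells around them. PDGF ligands act on fibroblasts, smooth muscle cells and pericytes through 2 receptor tyrosine kinases, encoded by Pdgfra and Pdgfrb. VEGF ligands act on endothelium, HGF on epithelium through the receptor Met, and insulin-like growth factor 1 on many cells through Igf1r. TGF-beta 1 is secreted in a latent form and released by integrins and proteases. Osteopontin, encoded by Spp1, binds integrins and CD44, and progranulin, encoded by Grn, is secreted and also carried to lysosomes.

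Expression is given as RPKM (reads per kilobase of exon, scaled to 1000000 reads), a level per length used to set genes side by side. It takes no account of GC content, with which detection varied (below), so rankings and shares between genes carry that limit. With 1 library per tissue no difference could be set against variation between mice, and no p-value or standard error is given. Intervals are 95% counting intervals of the reads behind each value. They hold no more than counting error, and PCR copies count in them like separate molecules. The read total implied by the deposited RPKM was 14460615 in heart, 16743406 in liver and 15550837 in kidney. Over 1 transcript per gene the recovered reads were 8751969, 10373688 and 9485372. All 8 macrophage markers, led by Lyz2, Adgre1 and Cd68, reached 1 RPKM in each library and summed to 1867, 2035 and 1864 RPKM. All 6 Kupffer cell markers, led by Clec4f, Cd5l and Vsig4, did so in liver, against 3 in heart and 1 in kidney. RNA of other cells was present too. The 6 kidney tubule markers, led by Umod, Slc12a1 and Aqp2, summed to 282 RPKM in kidney, with 0 reads in the other libraries. Only 2 of them, Umod at 215 RPKM and Slc12a1 at 63.4, reached 1 RPKM in kidney. The 6 endothelial markers, led by Stab2, Cdh5 and Pecam1, summed to 144 RPKM in liver, 10.1 in heart and 12.0 in kidney. Markers of T, B and NK cells, among them Cd79a and Cd3g, summed to 74.2 RPKM in liver, 3.08 in heart and 0.049 in kidney. Sums for cardiomyocytes (Myl2, Actc1, Tnnt2) were 8.64, 0.041 and 3.95 RPKM in heart, liver and kidney, and for neutrophils (S100a8, Retnlg, S100a9) 6.61, 0.065 and 0.14. In such bulk libraries fewer cells of a type and less RNA per cell cannot be told apart.

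Grn was the most abundant of the 10 genes in each library, and Tgfb1 the least. The order from the highest level down was Grn, Spp1, Igf1, Pdgfa, Hgf, Pdgfc, Pdgfb, Vegfb, Vegfa and Tgfb1 in heart. In liver it was Grn, Igf1, Pdgfc, Hgf, Spp1, Pdgfa, Pdgfb, Vegfb, Vegfa and Tgfb1. In kidney it was Grn, Spp1, Pdgfb, Igf1, Hgf, Pdgfa, Pdgfc, Vegfb, Vegfa and Tgfb1. The 3 highest genes of each library held 93.8%, 94.9% and 94.4% of the RPKM summed over the 10 genes in heart, liver and kidney. Neighbours in this order whose counting intervals overlapped were, in heart, Spp1 and Igf1, the run from Pdgfa through Hgf and Pdgfc to Pdgfb, and the run from Vegfb through Vegfa to Tgfb1. In liver they were the run from Pdgfa through Pdgfb and Vegfb to Vegfa, and in kidney Pdgfc with Vegfb and Vegfa with Tgfb1. The plot of levels shows that Spp1, Igf1 and Pdgfb moved the most between tissues and Grn the least among the abundant genes.

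**Figure D1:**
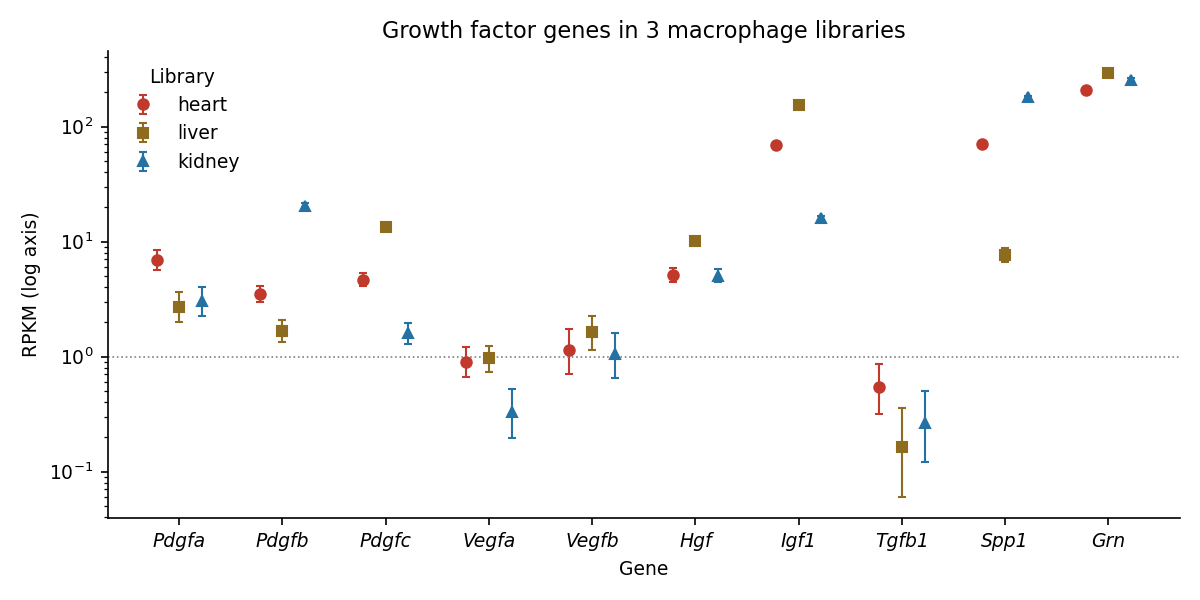
RPKM of the 10 growth factor genes on a log axis, with 1 point per library and bars for the 95% Poisson interval of its reads; the dotted line marks RPKM of 1. Spp1 ranges from 7.64 in liver to 180 in kidney and Igf1 from 16.0 in kidney to 153 in liver, while Vegfa, Vegfb and Tgfb1 lie near or under the line in every library.

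A gene entered the comparison if its RPKM was 1 or more in any library. That left 11482 genes, with 8 of the 10 growth factor genes, and Vegfa and Tgfb1 did not enter. The difference was taken on log2(RPKM + 1), which understates the change of low genes, and a difference of 2 log2 units, called 4-fold below, was taken as apart. Between heart and liver, 1 growth factor gene, Spp1, was at least 4-fold higher in heart, where 5.33% of all genes were, and 0 were lower, where 7.13% were. Between heart and kidney, Igf1 was the 1 gene at least 4-fold higher in heart (2.40% of all genes) and Pdgfb the 1 gene lower (5.10%), while 7.50% of all genes were apart either way. Between kidney and liver, Pdgfb and Spp1 were at least 4-fold higher in kidney (7.57% of all genes) and Pdgfc and Igf1 lower (5.10%). At 1 log2 unit, called 2-fold, Pdgfa and Spp1 were higher (17.9% of all genes) and Pdgfc and Igf1 lower (24.9%) in heart than in liver. Against kidney, Pdgfc and Igf1 were 2-fold higher (10.5%) and Pdgfb and Spp1 lower (22.9%) in heart, where 33.5% of all genes differed either way. Between kidney and liver the 4 genes were the ones that were 4-fold apart, with 24.2% of all genes 2-fold higher and 17.7% lower in kidney. The 8 genes had median differences of -0.40 (heart minus liver), 0.03 (heart minus kidney) and -0.27 (kidney minus liver), where all genes compared had -0.16, -0.23 and 0.04. A gene enters through its highest library, so these counts and medians describe the 8 genes and support nothing further. The 3 comparisons share libraries.

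**Figure D2:**
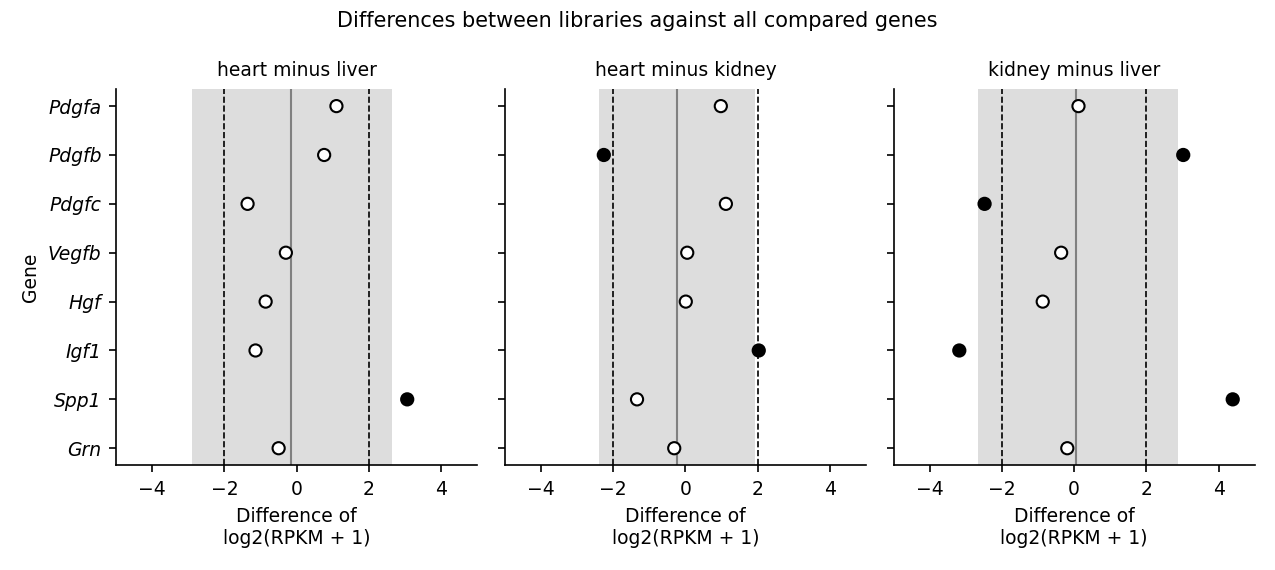
Difference of log2(RPKM + 1) for the 8 compared growth factor genes in each comparison, filled where it reaches 2 log2 units (dashed lines). The grey band spans the central 95% of all 11482 genes and the grey line their median. Spp1 lies beyond the band in heart minus liver at 3.06 and in kidney minus liver at 4.39. Igf1 lies beyond it in heart minus kidney at 2.03 and in kidney minus liver at -3.18, and Pdgfb in kidney minus liver at 3.02.

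The PDGF ligands differed in which gene led. Pdgfa, Pdgfb and Pdgfc encode chains that pair into dimers, of which PDGF-C is secreted latent and freed by proteases. Their levels summed to 15.2 RPKM in heart, 17.9 in liver and 25.2 in kidney. Pdgfa held 46.1% of that sum in heart, Pdgfc 75.5% in liver and Pdgfb 81.6% in kidney. A different ligand gene was therefore the highest in each library. Pdgfd, the remaining family member, stood at 0.697, 0 and 1.40 RPKM in heart, liver and kidney (18, 0 and 39 reads) and would hold at most 5.27% of a sum that included it.

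**Figure D3:**
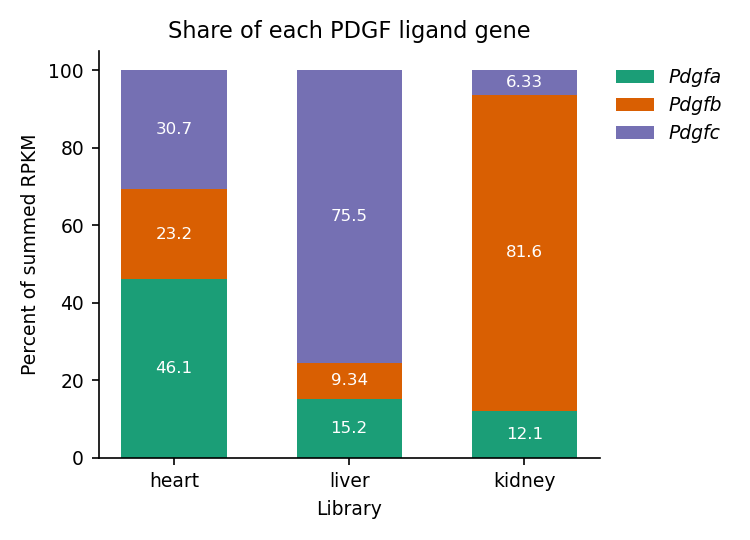
Share of Pdgfa, Pdgfb and Pdgfc in their summed RPKM, as stacked percent in each library. Pdgfa is the largest part in heart (46.1%), Pdgfc in liver (75.5%) and Pdgfb in kidney (81.6%).

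Pdgfb (mm10 chromosome 15, 79995876 to 80014808, minus strand) stood at 3.51 RPKM in heart (interval 2.97 to 4.12), 1.67 in liver (1.33 to 2.07) and 20.6 in kidney (19.3 to 21.9), from 149, 82 and 939 reads. Kidney was high and both others low, and none of the intervals overlapped. The level in kidney was 5.86-fold that in heart (counting interval 4.93 to 7.01) and 12.3-fold that in liver (9.83 to 15.6). Heart stood 2.10-fold above liver (1.60 to 2.79). Pdgfb is also known from endothelium and platelets. Of the 6 endothelial markers 5, all but Emcn, were highest in liver, where Pdgfb was lowest, while Emcn stood at 5.26, 0.908 and 3.96 RPKM in heart, liver and kidney. Platelet markers, led by Pf4, Ppbp and Gp9, summed to 419, 249 and 222 RPKM in heart, liver and kidney, most of it Pf4. Of them Ppbp was highest in heart, at 54.3, 0 and 1.44 RPKM in heart, liver and kidney (844, 0 and 24 reads). Itga2b, Gp9 and Gp1bb had 0 reads in heart and liver and 9, 4 and 4 reads in kidney. The part of the tubule, endothelial and platelet RNA in the level of Pdgfb was not tested.

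Pdgfc (chromosome 3, 81036416 to 81214031, plus strand) ran the other way. It stood at 4.66 RPKM in heart (4.08 to 5.29), 13.5 in liver (12.6 to 14.5) and 1.60 in kidney (1.28 to 1.97), from 236, 792 and 87 reads. Liver was the highest and kidney the lowest, with intervals apart. The level in liver was 2.90-fold that in heart (2.5 to 3.37) and 8.46-fold that in kidney (6.77 to 10.7). Heart was 2.92-fold above kidney (2.27 to 3.77). Pdgfa (chromosome 5, 138976972 to 138994953, minus strand) stood at 6.98 RPKM in heart (5.69 to 8.48), 2.72 in liver (1.99 to 3.63) and 3.06 in kidney (2.25 to 4.05), from 102, 46 and 48 reads. Heart was the highest, 2.57-fold above liver (1.80 to 3.72) and 2.29-fold above kidney (1.61 to 3.29). The ratio of kidney to liver, 1.12, had an interval from 0.734 to 1.72 and could not be told from equality at this depth. Reads were counted on both strands. Over all annotated exons of Pdgfa, 26.1% of the 3119 bases also belong to 6330403L08Rik, and reads of the 2 genes on those bases cannot be told apart. How many of those bases lie in the 1010 bp transcript used for the levels was not tested. The 7 fibroblast and mural cell markers summed to 130, 12.3 and 0.775 RPKM in heart, liver and kidney, and 6 of them were highest in heart. Dcn alone gave 125 RPKM there, and the collagen genes Col3a1 and Col1a1 stood at 1.78 and 0.8. The mural cell marker Rgs5 went the other way, at 0.051, 3.84 and 0 RPKM. The part of these cells in the level of Pdgfa was not tested.

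Igf1 was a liver-high gene like Pdgfc. Igf1 (chromosome 10, 87858265 to 87937047, plus strand) encodes insulin-like growth factor 1, which hepatocytes release into the blood under growth hormone and which macrophages make in tissues. It stood at 68.8 RPKM in heart (67.3 to 70.4), 153 in liver (151 to 155) and 16.0 in kidney (15.3 to 16.8), from 7501, 19309 and 1880 reads. The order was liver, heart, kidney, with intervals apart. Liver was 2.22-fold above heart (2.16 to 2.28) and 9.54-fold above kidney (9.10 to 10), and heart 4.29-fold above kidney (4.08 to 4.52). On the log2(RPKM + 1) scale heart minus kidney was 2.03, just past the threshold. Among all genes compared Igf1 stood at percentile 90.8 in heart, 95 in liver and 71.2 in kidney. The 5 deposited Igf1 transcripts gave differences of 1.99 to 2.03 for heart minus kidney and -3.18 to -3.16 for kidney minus liver. Igf1 transcripts begin at 3 start sites, and 2 of these sites each have a pair of transcripts that differ by 51 bp in length. The longer of the pair held 46, 326 and 20 more reads in heart, liver and kidney at one site and 43, 291 and 12 more at the other. Reads were counted for each transcript separately and did not add up exon by exon, since the 2 surpluses differ and the longest transcript held fewer reads than a shorter one (7501 against 7981 in heart). No share of a transcript was therefore worked out.

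Hgf (chromosome 5, 16553495 to 16619439, plus strand) encodes hepatocyte growth factor, known in the liver mainly from stellate cells. It stood at 5.11 RPKM in heart (4.44 to 5.85), 10.1 in liver (9.19 to 11.0) and 5.07 in kidney (4.42 to 5.78), from 208, 475 and 222 reads. Liver was the highest, 1.97-fold above heart (1.67 to 2.33) and 1.99-fold above kidney (1.69 to 2.34). Heart and kidney had a ratio of 1.01 (0.830 to 1.22) and could not be told apart. The difference depended on the transcript. A short transcript that ends at base 16573944 stood at 3.82, 5.40 and 5.87 RPKM in heart, liver and kidney, from 118, 193 and 195 reads, so liver did not stand above kidney there. Its level relative to the longest transcript was 0.748 in heart, 0.535 in liver and 1.16 in kidney. Short and long transcripts share their first exons and the reads on them, so no interval is given for these ratios.

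RNA of other liver cells was also highest in the library where these genes were highest. The endothelial markers summed to 10.1, 144 and 12.0 RPKM in heart, liver and kidney, though Emcn was lowest in liver. Those of T, B and NK cells summed to 3.08, 74.2 and 0.049 RPKM. Of the 5 hepatic stellate cell markers, led by Colec11, Lrat and Des, 2 had RPKM of at least 1 in liver and 0 in the others, with sums of 0.068, 5.91 and 0 RPKM in heart, liver and kidney. Colec11 and Lrat stood at 4.58 and 1.03 RPKM in liver (110 and 92 reads), with 0 reads in heart and kidney. Reln and Ngfr had 0 reads in every library. Among hepatocyte markers Trf was abundant in every library, at 388, 384 and 382 RPKM. The others, led by Alb and Fgb, summed to 0.535, 109 and 0.891 RPKM. The markers of Kupffer cells, the cells that the liver label names, summed to 190, 2030 and 2.78 RPKM. Of these, Vsig4 and Timd4 had the same order of libraries as Igf1 and Pdgfc. Clec4f, Cd5l and Marco had 0 reads in heart and kidney, and Nr1h3 stood at 1.07, 104 and 2.78 RPKM in heart, liver and kidney. The part of the Kupffer cells and of the other liver cells in the levels of Igf1, Pdgfc and Hgf was not tested.

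Spp1 had the widest range of the 10 genes, 4.39 log2 units, where the median range of all genes compared was 1.27. Spp1 (chromosome 5, 104436192 to 104441053, plus strand) encodes osteopontin, a secreted phosphoprotein made by macrophages and, in the kidney, by tubule cells. It stood at 70.8 RPKM in heart (67.4 to 74.5), 7.64 in liver (6.60 to 8.80) and 180 in kidney (175 to 186), from 1546, 193 and 4231 reads. Kidney was the highest and liver the lowest, with intervals apart. Kidney was 23.6-fold above liver (20.4 to 27.4) and 2.54-fold above heart (2.40 to 2.70), and heart was 9.27-fold above liver (7.98 to 10.8). The 5 deposited transcripts gave the same picture, from 4.39 to 4.41 log2 units for kidney minus liver. Over all its annotated exons 18.8% of the bases also belong to Gm42793. Receptors of osteopontin were present in every library, among them the integrin chains Itgav at 11.6, 19.3 and 15.6 RPKM, Itga4 at 19.6, 5.23 and 9.07 and Itga9 at 11.5, 37.3 and 22.6 in heart, liver and kidney. Tubule markers stood beside it in kidney, with Umod at 215 RPKM and Slc12a1 at 63.4, and each had 0 reads in heart and liver. Their part in the level of Spp1 in kidney was not tested. In heart Spp1 stood at 70.8 RPKM with all 6 tubule markers at 0 reads.

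The genes whose levels over the 3 libraries lay nearest to Spp1, by Euclidean distance of log2(RPKM + 1), were Mmp12, Tgfbr1 and Slco2b1. Mmp12, the macrophage metalloelastase, stood at 69.8, 9.47 and 183 RPKM in heart, liver and kidney (distance 0.28). Tgfbr1, the type I TGF-beta receptor, stood at 63.5, 13.9 and 143 RPKM (distance 0.87), and Slco2b1, an organic anion transporter, at 99.0, 4.25 and 156 RPKM (distance 0.89). With 3 libraries such likeness is a description only.

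Grn (chromosome 11, 102430322 to 102436809, plus strand) was abundant and nearly level. It stood at 207 RPKM in heart (202 to 212), 293 in liver (288 to 299) and 257 in kidney (252 to 263), from 6929, 11381 and 9274 reads. Liver was 1.42-fold above heart (1.38 to 1.46) and 1.14-fold above kidney (1.11 to 1.17). Grn lay at percentile 97.5 in heart, 98.7 in liver and 98.5 in kidney. It was also the most densely read of the 10 genes, at 2.99, 4.91 and 4 reads per bp. Per the file header at most 3 tags were counted at a position. The highest density of any gene was nevertheless 11.8, 14.2 and 18.8 reads per bp in heart, liver and kidney. How the limit acted on the deposited values is therefore not clear. The median absolute difference between heart and liver was 0.84 log2 units for the 9790 compared genes under 1 read per bp, 1.02 for 750 genes from 1 to 2, 0.92 for 371 genes from 2 to 3 and 0.58 for the 571 genes at 3 or more in any library, the class of Grn. Whether the limit held down Grn was not tested. Sort1, the sortilin receptor that takes up progranulin, stood at 0.400, 0 and 1.36 RPKM in heart, liver and kidney, and Slpi, an inhibitor of progranulin cleavage, at 2.86, 8.38 and 1.26. The sign of heart minus liver and of heart minus kidney for Grn turned, to 0.16 and 0.52 log2 units, when differences were centred on genes of like GC content, an alternative added after seeing the data.

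Vegfa, Vegfb and Tgfb1 were detected at low levels in every library. Vegfa (chromosome 17, 46016993 to 46032377, minus strand), the main VEGF of blood vessel growth, stood at 0.903 RPKM in heart (0.661 to 1.21), 0.967 in liver (0.732 to 1.25) and 0.329 in kidney (0.195 to 0.520), from 46, 57 and 18 reads. Kidney was the lowest, with heart 2.75-fold (1.56 to 5.04) and liver 2.94-fold (1.71 to 5.31) above it, and the ratio of liver to heart, 1.07, had an interval from 0.713 to 1.61. Over its 9 deposited transcripts, which share nearly all these reads, Vegfa ran from 0.903 to 1.16 RPKM in heart, 0.967 to 1.27 in liver and 0.329 to 0.44 in kidney, so the choice of transcript decides whether it enters the comparison. Of the VEGF receptors, Flt1 stood at 0.697, 1.65 and 0 RPKM, while the coreceptor Nrp1 was abundant in all libraries, at 83.5, 45.6 and 65.9. Vegfb (chromosome 19, 6982472 to 6987651, minus strand), a ligand of the VEGF receptor Flt1, stood at 1.14, 1.64 and 1.06 RPKM in heart, liver and kidney, from 21, 35 and 21 reads. All 3 of its intervals overlapped. Tgfb1 (chromosome 7, 25687002 to 25705077, plus strand) stood at 0.543 RPKM in heart (0.316 to 0.869), 0.165 in liver (0.0607 to 0.360) and 0.267 in kidney (0.122 to 0.507), from 17, 6 and 9 reads. Its ratio of heart to liver was 3.28 with an interval from 1.23 to 10.2, and the intervals of its other ratios included 1.

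Across all genes, detection was lower at both ends of GC content. The transcript of Tgfb1 has 62.5% G and C, that of Vegfb 62.6% and that of Pdgfb 60%, against 38.0% for Igf1, 39.9% for Hgf and 43.3% for Spp1. Low level and high GC content did not always go together among the 10 genes, as Vegfa has 50.9% and the abundant Grn 56.1%. Of the 946 coding genes over 60% GC, 9.83% had RPKM of at least 1 in heart, 16.7% in liver and 17.5% in kidney. Of the 5035 genes from 45 to 50% the shares were 50%, 48.6% and 51.5%, and of the 1982 genes under 40%, the class of Igf1 and Hgf, they were 26.9%, 25.3% and 26.5%. GC-rich genes were also lower in heart than in the other libraries. Over 60% GC the median difference of the genes compared was -0.66 log2 units for heart minus liver and -0.57 for heart minus kidney, and under 40% it was 0.20 and 0.16. Under the same centring on the GC class, Pdgfb stood at -1.69 and Igf1 at 1.88 for heart minus kidney. Neither then reached 2 log2 units. The kidney minus liver differences of Pdgfb, Spp1, Pdgfc and Igf1 were 3.16, 4.38, -2.49 and -3.22 under the same centring and stayed past it. Whether GC content set the low levels of Tgfb1 and Vegfb was not tested.

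**Figure D4:**
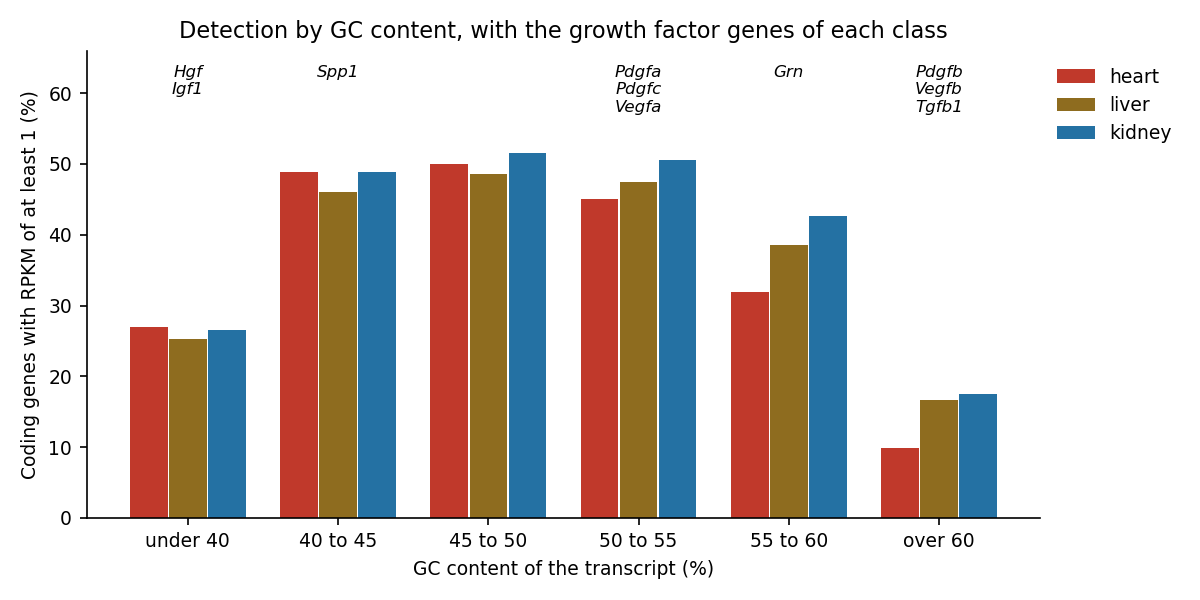
Percent of coding genes with RPKM of at least 1 in each library, by GC content of the transcript, with the growth factor genes of each class named above the bars. Detection is lowest over 60% GC, the class of Pdgfb, Vegfb and Tgfb1, at 9.83% in heart, 16.7% in liver and 17.5% in kidney, and is also low under 40%, the class of Hgf and Igf1.

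Promoter sequences are shown for 4 genes, Spp1 for its range, Igf1 and Pdgfc because both were high in liver and low in kidney, and Tgfb1 as the GC-rich gene with the fewest reads. Each runs from 250 bases before to 50 bases after a transcription start in RefSeq (build GRCm38.p6, the assembly of mm10), 5′ to 3′ on the strand of the gene, and 9 of the 10 genes had an entry. The window of Spp1 is chr5:104434861-104435160, that of Igf1 chr10:87860861-87861160, that of Pdgfc chr3:81036166-81036465 and that of Tgfb1 chr7:25686752-25687051. The Spp1 and Igf1 windows belong to the starts at 104435111 and 87861111, which differ from the starts of the longest transcripts used for the levels. A second Spp1 window, at the start of its longest transcript (104436192), held 0 matches to the motifs searched. Capitals mark matches, on either strand, to the 7 motifs searched.
Spp1: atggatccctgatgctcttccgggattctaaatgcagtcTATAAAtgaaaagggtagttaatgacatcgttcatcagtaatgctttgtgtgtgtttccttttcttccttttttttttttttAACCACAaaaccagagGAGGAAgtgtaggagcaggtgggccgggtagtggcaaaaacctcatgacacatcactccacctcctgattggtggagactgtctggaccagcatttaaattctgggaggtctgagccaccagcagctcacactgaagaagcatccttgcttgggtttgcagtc
Igf1: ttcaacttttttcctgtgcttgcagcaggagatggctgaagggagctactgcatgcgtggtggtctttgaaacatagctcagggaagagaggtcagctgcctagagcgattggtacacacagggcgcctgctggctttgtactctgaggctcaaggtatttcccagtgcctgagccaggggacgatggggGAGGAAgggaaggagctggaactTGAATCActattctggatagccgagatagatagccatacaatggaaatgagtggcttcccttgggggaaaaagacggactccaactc
Pdgfc: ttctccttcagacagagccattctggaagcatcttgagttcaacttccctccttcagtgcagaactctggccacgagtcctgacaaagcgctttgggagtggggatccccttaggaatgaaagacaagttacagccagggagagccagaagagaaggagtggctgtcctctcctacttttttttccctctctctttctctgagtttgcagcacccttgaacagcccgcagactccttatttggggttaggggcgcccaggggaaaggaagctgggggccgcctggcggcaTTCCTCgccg
Tgfb1: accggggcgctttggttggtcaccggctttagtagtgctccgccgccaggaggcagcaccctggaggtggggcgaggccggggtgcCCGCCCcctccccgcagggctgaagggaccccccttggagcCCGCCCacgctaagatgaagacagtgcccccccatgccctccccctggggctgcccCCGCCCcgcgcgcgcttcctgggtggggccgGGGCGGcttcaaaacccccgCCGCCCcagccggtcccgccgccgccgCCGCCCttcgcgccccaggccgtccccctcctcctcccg

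The motif GAGGAA, a core bound by the macrophage factor PU.1, was found in 8 of the 13 RefSeq promoters of these genes and in 28.3% of the 32851 promoters of all genes. It lay at -113 in Spp1 and at -60 in Igf1, and on the other strand at 41 in Pdgfc, counted from the transcription start. Igf1 also held the AP-1 motif TGANTCA at -37, found in 7.8% of all promoters. Spp1 held the RUNX motif AACCACA at -129 (5.3% of all promoters) and the TATA motif TATAAA at -211 (13.6%). The GC box GGGCGG occurred in 7 of the 13 promoters, 6 times in that of Tgfb1, and in 35.7% of all. The promoter of Tgfb1 had 77.0% G and C, that of Igf1 52.3% and that of Spp1 45.3%, with a median of 52.7% over all promoters. The hypoxia core ACGTG occurred in 1 of the 13, at the inner start of Vegfa, and the E-box CACGTG in 0. The ACGTG core lies within CACGTG, so their matches can overlap. The motifs were chosen after the sequences were seen, and a match is a description of letters, not a binding site.

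Further ligands of the same and related families were mostly under 1 RPKM. The list counts that follow are to be read beside the shares of all genes, 5.33% at least 4-fold higher and 7.13% lower in heart than in liver, 2.40% and 5.10% in heart than in kidney, and 7.57% and 5.10% in kidney than in liver. Of 28 further ligand genes, 7 had RPKM of at least 1 in any library. Gdf15 and Pros1 were at least 4-fold higher in heart than in liver, 0 were lower, and 0 were apart in the other comparisons. The list had medians of 1.55 (heart minus liver), 0.36 (heart minus kidney) and 1 (kidney minus liver). Pros1, which encodes protein S, a ligand of the receptor Mertk, was the most abundant, at 43.7, 8.12 and 33.9 RPKM in heart, liver and kidney. Gdf15, a stress-induced member of the TGF-beta superfamily, stood at 7.56, 0.166 and 1.31 RPKM, 45.5-fold higher in heart than in liver (15.2 to 224).

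Among the 26 receptor genes 21 entered the comparison, and the receptors of the PDGF and HGF ligands had 0 reads in liver. Pdgfra, also a fibroblast marker, stood at 1.62 RPKM in heart (153 reads) and 0 in both others, and Pdgfrb at 0.180, 0 and 0 in heart, liver and kidney. Met had 1, 0 and 42 reads. Igf1r was even, at 2.04, 1.52 and 1.77 RPKM. Tgfbr1 was at least 4-fold higher in heart and in kidney than in liver, with kidney 10.2-fold above liver (9.68 to 10.8). Pdgfrl, a PDGF receptor-like gene, and Kdr, the main VEGF receptor of endothelium, were at least 4-fold lower in heart and in kidney than in liver. Kdr stood at 0.383, 4.84 and 0.083 RPKM and is itself one of the 6 endothelial markers. Acvrl1, a type I receptor of the TGF-beta family, was 6.64-fold higher in kidney than in heart (5.46 to 8.12) and was the 1 receptor apart between these. Cd44, a receptor for osteopontin and hyaluronan, had the highest level of the list in heart and liver, at 209 and 160 RPKM, and stood at 68.8 in kidney, where Tgfbr1 led at 143. Receptor medians were 0.02, 0.13 and 0.00 in the same order of comparisons.

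Of 18 genes for binding, latency and trafficking proteins, 9 entered the comparison. Igfbp4, Dcn and Bgn were at least 4-fold higher in heart than in liver and than in kidney, and Igfbp7 was lower in heart than in liver. Nrros was higher and Slpi and Dcn lower in kidney than in liver. Igfbp4, which binds IGFs, stood at 17.0, 0.464 and 2.28 RPKM in heart, liver and kidney. Igfbp7, known from endothelium, stood at 2.18, 17.1 and 7.42 RPKM. Pecam1 (3.15, 25.8 and 7.89 RPKM) shared this order of libraries, and none of the other endothelial markers did. The part of endothelial RNA in the level of Igfbp7 was not tested. Dcn encodes decorin, a proteoglycan that binds TGF-beta, and stood at 125, 8.15 and 0.480 RPKM. Nrros, which holds latent TGF-beta 1 on macrophages, stood at 36.1, 13.2 and 78.9 RPKM, while Tgfb1 itself was under 1 RPKM in every library. Bgn, the related proteoglycan biglycan, stood at 14.7, 2.82 and 2.75 RPKM. Psap, which encodes prosaposin, a carrier of progranulin to lysosomes, was the most abundant at 255, 176 and 326 RPKM. Medians of this list were 0.60, 0.11 and -0.03.

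Among 21 activating proteases and their inhibitors 16 entered the comparison. Genes at least 4-fold higher in heart than in liver included Plaur and Thbs1, and 0 were lower. Thbs1 was higher and Spint2 lower in heart than in kidney. Genes higher in kidney than in liver included Hpn and Spint2, and Mmp9 was lower. Thbs1 encodes thrombospondin 1, an activator of latent TGF-beta, and stood at 18.4, 0.072 and 2.77 RPKM in heart, liver and kidney. Plaur, the receptor of urokinase, stood at 70.7, 8.57 and 19.9 RPKM. Mmp9, a gelatinase, stood at 1.66, 4.76 and 0 RPKM. Plau, the urokinase that can activate HGF, stood at 56.4, 26.1 and 80.8 RPKM. Plat, the tissue plasminogen activator that frees PDGF-C, had 76, 0 and 1 reads, so the library with the highest Pdgfc had 0. Spint2 and Hpn, epithelial genes, stood at 4.17 and 3.23 RPKM in kidney beside the tubule markers. Ctsl, the lysosomal protease cathepsin L, had the highest level of the list in heart and liver, at 98.0 and 130 RPKM, and stood at 63.4 in kidney, where Plau led. The medians were 0.11, 0.37 and 1.16.

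**Figure D5:**
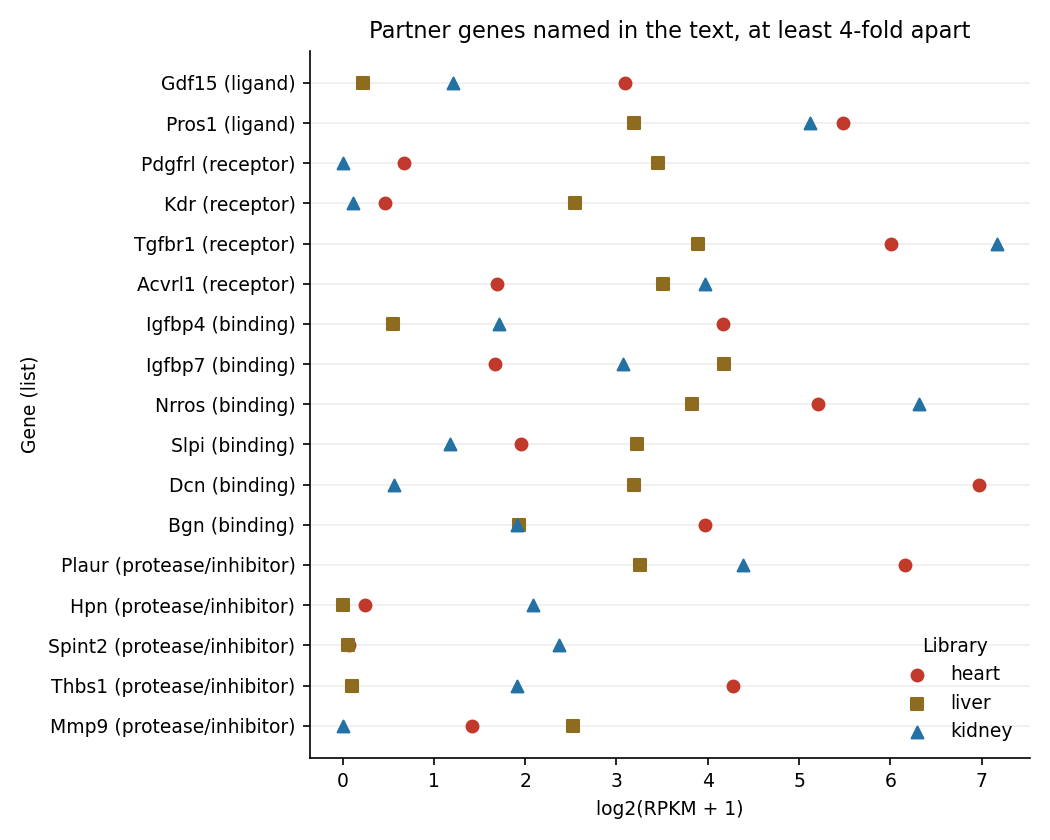
Level as log2(RPKM + 1) in each library of the further ligands, receptors, binding proteins, proteases and inhibitors named above that were at least 4-fold apart in any comparison. Dcn runs from 0.480 RPKM in kidney to 125 in heart, and Tgfbr1 and Nrros are highest in kidney.

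Signalling genes downstream were compared as lists. Of 14 TGF-beta signalling and target genes 12 entered, and Smad3, Tgfbi and Pmepa1 were at least 4-fold higher in heart than in liver, Smad3 and Tgfbi also in kidney than in liver, with 0 lower in either and 0 apart between heart and kidney. Smad3, a transducer of TGF-beta receptors, stood at 6.09, 0 and 4.61 RPKM in heart, liver and kidney. Tgfbi, a matrix protein induced by TGF-beta, stood at 179, 40.9 and 219 RPKM, the highest level of the list in heart and kidney, and Tgif1, a repressor of this signalling, led in liver at 168. Pmepa1 stood at 6.33, 0.66 and 5.27. Medians of the list were 1.41, 0.28 and 0.60 in the order heart minus liver, heart minus kidney, kidney minus liver. Of 20 hypoxia response genes 18 entered, of which 3, 1 and 3 were higher in the first-named library of these comparisons and 0 lower, beside 5.33%, 2.40% and 7.57% of all genes higher and 7.13%, 5.10% and 5.10% lower. Pfkfb3, a regulator of glycolysis, stood at 51.0, 0.463 and 9.52 RPKM and Bnip3, a mitochondrial protein, at 23.2, 2.60 and 25.6 in heart, liver and kidney. Ndrg1 stood at 6.12, 0.27 and 3.11 RPKM, and Vhl, which marks the hypoxia factors for breakdown, at 0.863, 0.11 and 3.78. Ldha, lactate dehydrogenase A, was the most abundant of the list at 128, 200 and 116 RPKM. The list's medians were 0.59, 0.22 and 0.16. Members of the list did not share 1 order of libraries, and Ldha had its highest value in liver. Of 14 genes of growth hormone and insulin-like signalling 10 entered, with medians of -0.06, 0.26 and 0.12. Jak2 was 4-fold higher and Igf2bp2 lower in heart than in liver, Jak2 was higher in heart than in kidney, and Igf2bp3 was higher and Igf2bp2 lower in kidney than in liver. Jak2, a kinase of the growth hormone receptor, stood at 16.3, 3.09 and 3.07 RPKM, and Ghr, the receptor itself, at 0.451, 0 and 0.195. Igf2bp2, an RNA-binding protein, stood at 0.036, 11.3 and 1.59 RPKM, highest in liver as Igf1 was, and the related Igf2bp3 at 1.53, 0.317 and 4.75.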

How the data were processed

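RNA from sorted macrophages of 3 tissues was amplified with a kit for low input and sequenced, with 1 library each, per the labels' protocols. CASAVA, STAR and mm10 are named in the submitters' processing notes, with no version or setting. The values deposited by the authors are RPKM for 34711 RefSeq transcripts, made with HOMER (exons, both strands, at most 3 tags at a position), per the file headers; the column names say FPKM.

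Reads were recovered from the deposited RPKM. All low values checked (up to 500 reads; 15144, 11996 and 14072 values in heart, liver and kidney) lay within 0.1 of a whole read. The longest coding transcript per gene was kept. Genes with RPKM of at least 1 in any library were compared on log2(RPKM + 1) with a threshold of 2 log2 units. Poisson and Clopper-Pearson intervals (95%) used scipy 1.17.1, and the steps were tested on simulated data. GC content and exon overlap came from GENCODE M21 (GRCm38), with GC for 99.4% of coding genes. Symbols were matched as written.

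The members and lists were chosen with earlier results of these data known. Up to 5 genes past the threshold by largest difference and the most abundant gene of each list are named, and other genes were named by role after their values were seen. A few genes that the rule names are not reported here. Alternatives were other pseudocounts, scalings, filters, transcripts, thresholds and a limit on read density, and, added later, centring by GC class.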

Additional observations from a re-analysis of the deposited data

How the results depend on the processing

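With 1 library per tissue no replicate could be left out. No paired analysis was possible because each tissue has a single library. The 7 differences of growth factor genes past 2 log2 units kept their sign under every alternative that could be run for them. Other pseudocounts, filters, thresholds and the limit on read density could not turn a sign by construction. Only the scalings, the centring by GC class and, for genes with more than 1 transcript, the choice of transcript could have done so. Spp1 ranged from 2.59 to 3.34 for heart minus liver and from 3.87 to 4.63 for kidney minus liver, Pdgfb from -2.52 to -1.59 and Igf1 from 1.81 to 2.31 for heart minus kidney. For kidney minus liver Pdgfb ranged from 1.94 to 3.55, Pdgfc from -3.00 to -1.49 and Igf1 from -3.25 to -2.91. With a pseudocount of 5, which lowers every difference by construction, 0 genes were higher and 0 lower in heart than in kidney, and 1 was higher and 1 lower in kidney than in liver. With the median over transcripts 0 genes were higher in heart than in kidney, as Igf1 stood at 1.99. Centring by GC class gave 0 higher and 0 lower there. Among genes of at most 2 reads per bp, where Spp1, Igf1 and Grn are not tested, 0 were higher in heart than in liver, 0 higher in heart than in kidney, and 1 higher and 1 lower in kidney than in liver. With a threshold of 1 log2 unit the counts were 2 higher and 2 lower in heart than in liver and 2 and 2 against kidney.

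Partner and pathway genes at least 4-fold apart numbered 20 for heart and liver, 8 for heart and kidney and 17 for kidney and liver, of 93 compared. These are 21.5%, 8.60% and 18.3%, beside 12.5%, 7.50% and 12.7% of all genes. They were 41, 27 and 37 with a pseudocount of 0.1, 7, 1 and 4 with a pseudocount of 5, 38, 22 and 35 with TPM scaling, which makes the pseudocount smaller in effect, and 48, 40 and 51 at 1 log2 unit.

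Scaling moved the balance of all genes. For heart and liver 42.8% of genes apart were higher in heart as deposited, 53.6% with TPM, 53.5% with median ratio scaling and 55.9% with GC centring. For heart and kidney the values were 31.9%, 33.9%, 45.2% and 56.0%. The median of all genes for heart minus liver moved from -0.16 to -0.02 with TPM and 0.00 with median ratio scaling, for heart minus kidney from -0.23 to -0.01 with median ratio scaling, and for kidney minus liver from 0.04 to 0.15 with TPM. Vegfa, Vegfb and Tgfb1, with 6 to 57 reads a library, are limited by depth.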
